A study of Homo sapiens with 24 samples.

Results

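The integrated stress response was followed through 10 genes, the transcription factors ATF4, ATF5, ATF3 and DDIT3 (CHOP) and the effectors TRIB3, CHAC1, SESN2, DDIT4, PPP1R15A and ASNS. They were taken by symbol from the 60675 Ensembl identifiers of a count table, in which each matched 1 identifier, and all 10 passed the filter on low counts in every comparison (17023 genes passed it over all 24 libraries). The cells were MIA PaCa-2, a line from a human pancreatic carcinoma, in 2 derived lines. C/EBPδ-inducible cells carried a Tet-On vector with the CEBPD cDNA under doxycycline control, and were a pool of 3 clones marked with mVenus. CTRL cells carried the vector without the cDNA and were marked with mCherry, so that doxycycline exposure, but not the induced gene, was common to both lines. RNA was sequenced after 0, 8, 24 and 48 h of 2 µg/mL doxycycline in 3 parallel wells per group, which gave 8 groups. The labels list doxycycline at 0 h too, whereas the study describes these cells as untreated, and they were used as untreated. The wells belong to 1 experiment, and the p-values measure the spread between wells.

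The integrated stress response is a shared route by which cells answer amino acid shortage, unfolded protein in the endoplasmic reticulum, haem shortage, viral RNA and mitochondrial dysfunction. Any of several kinases phosphorylates the translation factor eIF2, which lowers protein synthesis as a whole while ATF4, whose mRNA has short upstream reading frames, is translated more. ATF4 then switches on genes for amino acid synthesis and uptake, tRNA charging and redox balance, and, when the stress lasts, the factor CHOP, encoded by DDIT3. PPP1R15A (GADD34) recruits a phosphatase to eIF2 and closes the loop. In pancreatic cancer cells the pathway is known for adaptation to poor nutrient supply. Doxycycline is known, as background, to inhibit translation in mitochondria, and C/EBPδ belongs to the bZIP family that also holds ATF4 and CHOP.

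On GRCh38 (GENCODE release 44), the transcription factor genes are ATF4 (ENSG00000128272) at chr22:39519695-39522683 on the plus strand, ATF5 (ENSG00000169136) at chr19:49928702-49933935 on the plus strand, ATF3 (ENSG00000162772) at chr1:212565334-212620777 on the plus strand and DDIT3 (ENSG00000175197) at chr12:57516588-57521737 on the minus strand. The effector genes are TRIB3 (ENSG00000101255) at chr20:362835-397559 on the plus strand, CHAC1 (ENSG00000128965) at chr15:40952962-40956512 on the plus strand, SESN2 (ENSG00000130766) at chr1:28259518-28282491 on the plus strand, DDIT4 (ENSG00000168209) at chr10:72273919-72276036 on the plus strand, PPP1R15A (ENSG00000087074) at chr19:48872212-48876059 on the plus strand and ASNS (ENSG00000070669) at chr7:97851677-97872542 on the minus strand. The strand setting of the counting is not given in the sources used here, and 3 members overlap other genes. Exons of ATF5 overlap NUP62 and IL4I1 on the other strand over 640 bases, and those of DDIT3 overlap MARS1 and MBD6 on the other strand over 413 bases. Exons of ASNS share 2415 bases with an unnamed gene on the same strand, and ATF4 and ASNS each have 4 annotated pseudogenes, so that the counts of these 4 members are the less certain ones.

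Because most of these genes moved together, their RefSeq promoter windows (GRCh38.p14, 250 bases before to 50 after each start, 18 windows for the 10 members) were searched on both strands for 4 motifs, with none overlapping another. The core letters of the element that ATF4 binds together with C/EBP factors, TGATGNAA, were in 3 of the 18 windows, of ATF3, CHAC1 and ASNS, and in 3.62% of all 35116 windows. The cAMP response element TGACGTCA, a site of ATF and CREB factors, was in that of PPP1R15A and in 1.85% of all windows. The palindromic C/EBP site TTGCGCAA and the endoplasmic reticulum stress element (ERSE) matched no member, against 0.151% and 0.0769% of all windows, which says only that these letters are not in these windows. The matches are shown on the strand of their gene, 5′ to 3′, with the matched letters in capitals, to set the 3 matches of the core letters beside the single match of the cAMP letters.
ATF3: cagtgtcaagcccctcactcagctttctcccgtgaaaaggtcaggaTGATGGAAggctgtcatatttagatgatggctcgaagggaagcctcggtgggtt
CHAC1: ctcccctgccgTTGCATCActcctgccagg
ASNS: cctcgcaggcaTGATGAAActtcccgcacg
PPP1R15A: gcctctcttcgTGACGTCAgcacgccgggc
The ATF3 window is chr1:212565170-212565269 (plus strand, match at -191 from the start), the CHAC1 site is chr15:40953251-40953280 (plus strand, at -209, where the core is read on the opposite strand), the ASNS site is chr7:97872458-97872487 (minus strand, at -68) and the PPP1R15A site is chr19:48872352-48872381 (plus strand, at -58). The last 3 overlap annotated exons. No binding was measured in these data.

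Library totals ran from 12731237 to 22598595 counts, with a median of 18959363.5, and the lowest belonged to the 8 h C/EBPδ-inducible replicate 3. Each member had between 30 and 7928 counts in every library, and the coefficient of variation of the 3 wells had a median of 4.36%. Values are CPM, library-size-scaled counts after TMM normalization (edgeR's cpm), in the order of replicates 1 to 3. The targeted gene followed the labels. CEBPD stood at 1.32 to 4.42 CPM in the CTRL libraries. In the inducible cells it was at 18.9, 23.4 and 22.3 CPM at 0 h, above every CTRL library, and at 199.7 to 321 CPM from 8 h on, where the table does not separate cDNA from endogenous transcript. Of the epithelial markers of the parental line, KRT8 and KRT18 were abundant in CTRL cells and lower in the inducible cells, while EPCAM, CDH1 and KRT7 stayed at or below 6.20 CPM. Markers of leukocytes (PTPRC), fibroblasts (DCN), acinar cells (PRSS1, CPA1) and endocrine cells (INS) were at no more than 1 count in any library. PECAM1 (endothelium) was at no more than 6 counts and COL1A1 (fibroblasts) at no more than 43 counts. In these bulk libraries, more expressing cells and more RNA per cell cannot be told apart.

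Per length of exon (FPKM, a level that allows genes to be compared), ATF4 and ATF5 were the most abundant of the transcription factors and ATF3 the least abundant of the 10 in all 8 groups. In CTRL cells at 0 h, ATF5 stood at 56.3 ± 2.58 FPKM (SD, n = 3) and ATF4 at 43.7 ± 1.31 FPKM. At the low end, CHAC1 stood at 1.14 ± 0.181 FPKM and ATF3 at 0.491 ± 0.106 FPKM. At 48 h in the C/EBPδ-inducible cells the order had changed, and DDIT4 led with 157 ± 5.20 FPKM, ahead of ATF4 with 103 ± 2.46 FPKM. The DDIT3 level stayed between 4.41 ± 0.656 FPKM in CTRL cells at 0 h and 9.36 ± 1.05 FPKM in CTRL cells at 8 h.

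**Figure D1:**
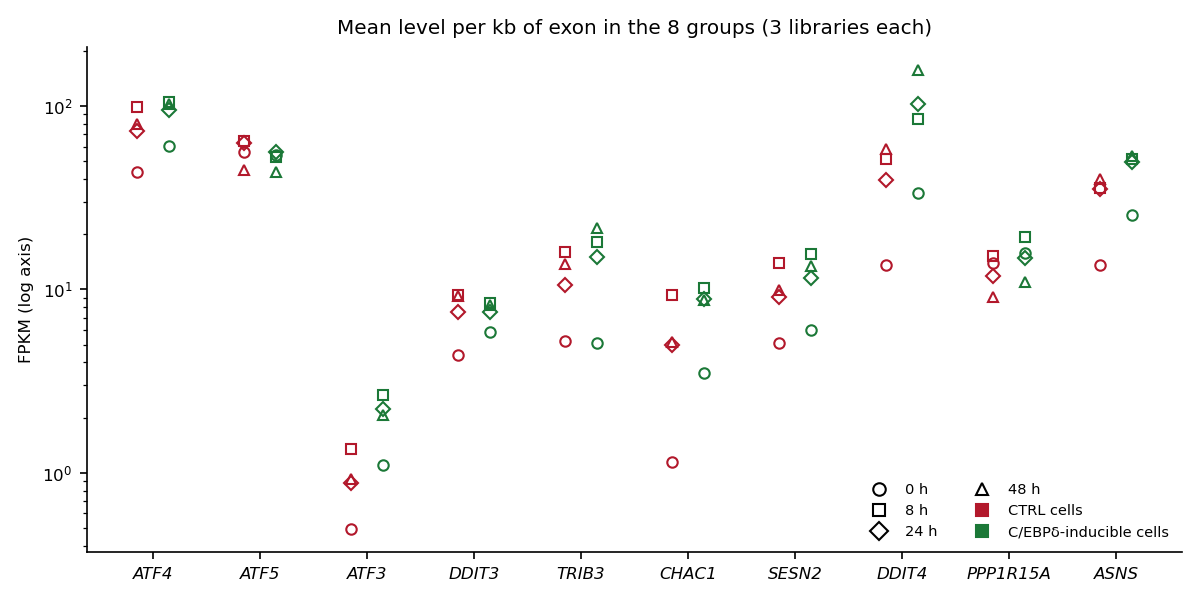
Mean level of each gene per kb of exon (FPKM, log axis) in the 8 groups, 3 libraries each, with the time given by the marker shape and the line by colour. ATF3 lies lowest in every group, and the highest point is DDIT4 in inducible cells at 48 h.

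The CTRL cells show what doxycycline and time in culture did without the CEBPD cDNA, and these 2 cannot be told apart, since both grow together from 0 h. After 8 h, 8 of the 10 members were higher than at 0 h and none was lower in edgeR at an FDR of 0.01, against 0.905% and 0.793% of the 15253 genes tested. The median change of the members was 1.45 on the log2 scale, against 0.012 for all genes. ATF5 and PPP1R15A were the 2 that did not pass.

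CHAC1, a glutathione-degrading enzyme of the ATF4-CHOP route, made the largest step of the members. Its CTRL libraries held 2.35, 1.97 and 2.72 CPM at 0 h and 21.8, 18.5 and 17.3 CPM at 8 h. These groups lie far apart, and the fitted change was 8.28-fold, or 3.05 ± 0.14 (SE), adjusted p = 1.1e-06 in edgeR on the log2 scale. DDIT4 (REDD1), an inhibitor of mTORC1, went from 28.7, 28.2 and 29.9 CPM to 120.1, 106 and 102 CPM, a log2 change of 1.94 ± 0.075 (SE), adjusted p = 4.91e-07 in edgeR. TRIB3, a pseudokinase that binds ATF4 and AKT, went from 16.2, 16.8 and 18.7 CPM to 55.3, 51.8 and 50.7 CPM, with a log2 change of 1.63 ± 0.076 (SE), adjusted p = 1.1e-06 in edgeR. In each of these genes the lowest library at 8 h was above the highest at 0 h.

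ATF4 itself rose from 110.4, 115 and 117 CPM to 278, 249 and 252 CPM (1.21 ± 0.058 (SE), adjusted p = 1.1e-06 in edgeR). ASNS, asparagine synthetase and a classic ATF4 target, rose from 65.5, 70.5 and 64.0 CPM to 172, 176 and 174 CPM (1.41 ± 0.056 (SE), adjusted p = 4.91e-07 in edgeR). The mRNA of the master factor and of its textbook target moved by like amounts on the log2 scale. SESN2, a leucine sensor upstream of mTORC1, rose from 17.2 to 18.3 CPM to 43.1 to 52.0 CPM, by 1.49 ± 0.087 (log2, SE). DDIT3 libraries went from 4.87, 6.58 and 5.85 CPM to 13.8, 11.8 and 11.1 CPM (1.12 ± 0.13 (SE), adjusted p = 0.000811 in edgeR). ATF3, a stress-induced repressor of low abundance, went from 2.41, 1.91 and 1.57 CPM to 5.56, 4.43 and 6.25 CPM (1.49 ± 0.19 (SE), adjusted p = 0.00172 in edgeR). The ATF3 call was lost when 1 of 2 libraries was left out (CTRL 0 h replicate 2 or 3, adjusted p from 0.0137 to 0.0157).

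The 2 genes that did not pass behaved differently from the rest. ATF5, a relative of ATF4 with the same kind of upstream reading frames, stood at 158, 159.5 and 171 CPM at 0 h and 188, 185 and 187 CPM at 8 h, without overlap but with a log2 difference of only 0.22 ± 0.051 (SE), adjusted p = 0.0337 in edgeR. In a model of all 24 libraries it passed (adjusted p = 0.00259). PPP1R15A stood at 46.2, 45.8 and 50.8 CPM and 55.6, 52.3 and 47.8 CPM, which overlap (0.15 ± 0.074 (SE), adjusted p = 0.301 in edgeR).

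**Figure D2:**
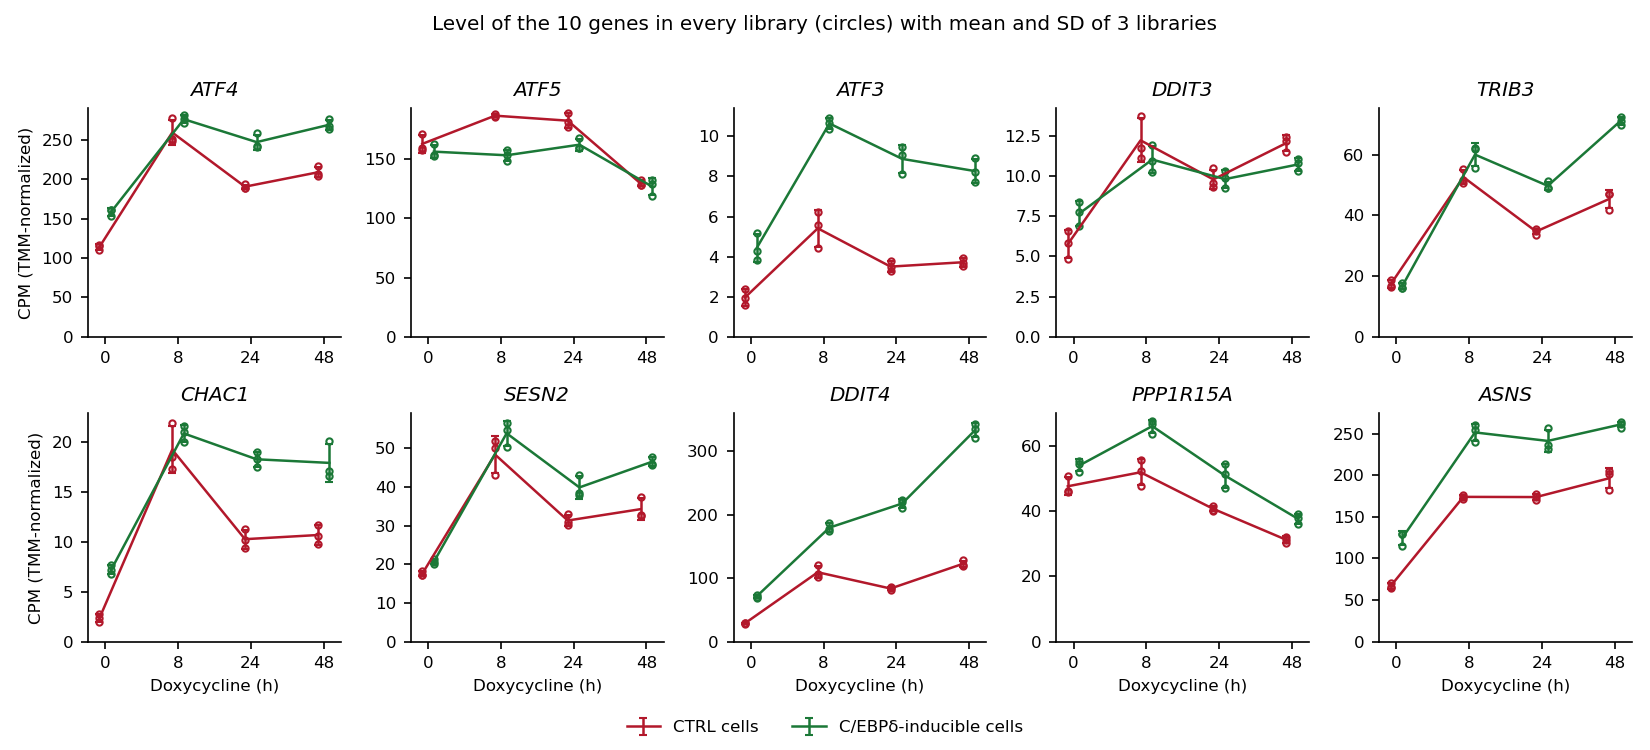
CPM of each gene in every library (circles) at 0, 8, 24 and 48 h, with lines through the means and bars of 1 SD (n = 3), for CTRL and C/EBPδ-inducible cells. Most genes step up by 8 h in both lines, while ATF5 and PPP1R15A end below their 0 h level at 48 h.

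At 24 h the CTRL cells still held 9 members above the 0 h level and 1, PPP1R15A, below it, against 2.81% and 3.25% of 15196 genes. At 48 h, 8 were above and 2, ATF5 and PPP1R15A, below, but by then 15.2% of 15294 genes were higher and 14.7% lower. The comparisons with 0 h share the same 3 control libraries, so that they are not independent of each other. Between 8 and 24 h, 5 members fell back, namely ATF4, TRIB3, CHAC1, SESN2 and DDIT4, and none rose further (1.38% of all genes were lower and 1.07% higher). PPP1R15A (-0.37 ± 0.071 (SE), adjusted p = 0.0113 in edgeR) and ATF3 (-0.65 ± 0.15 (SE), adjusted p = 0.0283) fell short here, but PPP1R15A passed in DESeq2 (-0.37), with no filter (-0.36) and in the model of all 24 libraries (-0.35), and ATF3 passed with no filter (-0.65) and in that model (-0.64). This step and those from 24 to 48 h were added after the levels had been seen.

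CHAC1 shows the partial return best. Its CTRL libraries held 9.36, 11.3 and 10.1 CPM at 24 h and 9.72, 10.6 and 11.7 CPM at 48 h, which overlap with each other and lie between those of 0 h and 8 h. The log2 change was -0.92 ± 0.11 (SE), adjusted p = 0.000884 in edgeR from 8 to 24 h, and 2.12 ± 0.13 (SE), adjusted p = 7.88e-10 in edgeR from 0 to 24 h. ATF4 stood at 189.5, 189 and 194 CPM at 24 h, and SESN2 at 30.8, 30.2 and 33.0 CPM. Both lay below all of their 8 h libraries and above all of their 0 h libraries. ASNS did not take part in the return, with 174, 177 and 169.7 CPM at 24 h and a log2 difference of -0.019 ± 0.046 (SE), adjusted p = 0.857 in edgeR from 8 h.

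From 24 to 48 h in CTRL cells, TRIB3 and DDIT4 were higher and ATF5 and PPP1R15A lower, against 12.2% and 11.3% of all genes. DDIT4 reached 121, 119.6 and 128 CPM from 81.7, 85.5 and 83.8 CPM (0.56 ± 0.046 (SE), adjusted p = 7.63e-06 in edgeR), with 1 library within the range of 8 h and 2 above it. TRIB3 rose by 0.39 ± 0.063 (log2, SE). PPP1R15A fell through 40.2, 41.6 and 40.3 CPM to 32.2, 31.3 and 30.2 CPM, so that its 48 h libraries were the lowest of the line (-0.61 ± 0.066 (SE), adjusted p = 1.5e-05 in edgeR against 0 h). ATF5 stood at 128, 128 and 132 CPM at 48 h (-0.34 ± 0.049 (SE), adjusted p = 0.000152 in edgeR against 0 h).

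Several of these CTRL calls depended on single libraries or on the method. In DESeq2, ATF3 (adjusted p = 0.0169) and PPP1R15A (adjusted p = 0.0117) did not pass at 24 h against 0 h. In the edgeR model of all 24 libraries, ATF5 (adjusted p = 0.0201) and PPP1R15A (adjusted p = 0.0174) did not pass there. At 24 h against 0 h, the calls of ATF5 (0.17, adjusted p = 0.00613 in edgeR), PPP1R15A (-0.23, adjusted p = 0.00565) and ATF3 (0.84, adjusted p = 0.00568) were each lost when single libraries were left out one at a time (ATF5 without CTRL 0 h replicate 1 or 2 or CTRL 24 h replicate 1, 2 or 3, adjusted p from 0.0144 to 0.0609, PPP1R15A without CTRL 0 h replicate 3 or CTRL 24 h replicate 1, 2 or 3, adjusted p from 0.0225 to 0.054, ATF3 without CTRL 0 h replicate 2 or 3 or CTRL 24 h replicate 1, 2 or 3, adjusted p from 0.0154 to 0.041). The ATF3 call at 48 h was lost without CTRL 0 h replicate 3 or CTRL 48 h replicate 3, adjusted p from 0.0101 to 0.0125. In the step from 8 to 24 h, the calls were lost for ATF4 without CTRL 24 h replicate 1, 2 or 3, adjusted p from 0.011 to 0.0131, for CHAC1 without CTRL 24 h replicate 3, adjusted p = 0.0163, for SESN2 without CTRL 8 h replicate 2 or CTRL 24 h replicate 1, 2 or 3, adjusted p from 0.0132 to 0.0192, and for DDIT4 without CTRL 8 h replicate 2 or CTRL 24 h replicate 1, 2 or 3, adjusted p from 0.0372 to 0.0531, so that the count of 5 fell to between 1 and 3 without CTRL 8 h replicate 2 or any CTRL 24 h replicate.

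In the C/EBPδ-inducible cells most members rose from 0 h as well. After 8 h, 9 members were higher and none was lower, against 15.0% and 15.5% of 15395 genes. At 24 h, 7 were higher and none was lower, against 7.33% and 8.14% of 15560 genes, and at 48 h 8 were higher and 2 lower, against 19.1% and 19.5% of 15394 genes. The median log2 change of the members was 1.14, 0.95 and 0.98 at 8, 24 and 48 h, where that of all genes was -0.002, 0.0036 and 0.005. These comparisons again share their 0 h libraries.

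DDIT4 climbed at each time. It stood at 70.6, 69.3 and 74.1 CPM at 0 h, 175, 177 and 187 CPM at 8 h, 220.3, 210.2 and 223 CPM at 24 h and 336, 343 and 321 CPM at 48 h. No library of one time overlapped with those of the next, and the change at 48 h was 4.64-fold (2.22 ± 0.037 (SE), adjusted p = 5.25e-25 in edgeR). TRIB3 went from 16.2, 17.9 and 16.0 CPM to 62.3, 55.7 and 62.0 CPM, then 49.0, 51.3 and 48.9 CPM and 72.4, 69.9 and 71.0 CPM, with a dip at 24 h and its highest level at 48 h (2.07 ± 0.054 (SE), adjusted p = 1.08e-20 in edgeR against 0 h). From 8 to 24 h, DDIT4 was the 1 member that rose (0.28 ± 0.038 (SE), adjusted p = 5.65e-06 in edgeR) while ATF4, TRIB3, SESN2 and PPP1R15A fell, against 14.3% and 15.2% of all genes. The ATF4 fall, of -0.16 ± 0.038 (log2, SE), was lost without inducible 24 h replicate 2 or 3, adjusted p from 0.0104 to 0.0195. From 24 to 48 h, TRIB3, DDIT4 and SESN2 rose and ATF5 and PPP1R15A fell, against 11.7% and 12.1% of all genes. The SESN2 rise (0.21 ± 0.056 (SE), adjusted p = 0.00631 in edgeR) was lost in DESeq2 (adjusted p = 0.0163) and without inducible 24 h replicate 2 or 3 or inducible 48 h replicate 1, 2 or 3, adjusted p from 0.0193 to 0.0678.

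CHAC1 stood at 7.14, 7.65 and 6.75 CPM at 0 h and 21.6, 20.9 and 19.9 CPM at 8 h. It then stood at 19.0, 17.5 and 18.3 CPM at 24 h, below each of the 8 h libraries (-0.19 ± 0.071 (SE), adjusted p = 0.0357 in edgeR from 8 h), and at 20.0, 17.0 and 16.6 CPM at 48 h, overlapping with both earlier times. ASNS went from 129.9, 115 and 129 CPM to 254, 240.0 and 260.4 CPM and stood at 231 to 264 CPM later. ATF4 stood at 153, 161 and 161 CPM, 276, 271 and 281 CPM, 258, 242 and 242 CPM and 277, 268 and 264 CPM at the 4 times, with all later libraries above those of 0 h. ATF3 was at 3.85 to 5.18 CPM at 0 h and 7.71 to 10.9 CPM later, and SESN2 at 20.1 to 21.4 CPM and 38.0 to 56.5 CPM. Every later library of both was above those of 0 h.

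DDIT3 had the smallest change at 48 h of the 8 genes that were then above their 0 h level. Its inducible libraries held 6.87, 8.42 and 7.76 CPM at 0 h, 10.2, 10.9 and 11.9 CPM at 8 h, 9.25, 10.3 and 9.86 CPM at 24 h and 10.3, 10.8 and 11.1 CPM at 48 h. The log2 change was 0.50 ± 0.10 (SE), adjusted p = 0.000503 in edgeR at 8 h and 0.35 ± 0.099 (SE), adjusted p = 0.0109 in edgeR at 24 h, just short of the threshold. It passed at 24 h without inducible 0 h replicate 2 or inducible 24 h replicate 1, adjusted p from 0.00889 to 0.00992 and with no filter on low counts (adjusted p = 0.00461). PPP1R15A rose to 66.9, 67.6 and 63.8 CPM from 55.5, 52.0 and 54.6 CPM at 8 h (0.29 ± 0.039 (SE), adjusted p = 3.49e-06 in edgeR) and fell to 38.0, 39.0 and 36.0 CPM at 48 h (-0.53 ± 0.05 (SE), adjusted p = 1.96e-09 in edgeR). ATF5 was at 148 to 168 CPM up to 24 h and at 129, 133 and 119 CPM at 48 h (-0.31 ± 0.039 (SE), adjusted p = 2.76e-07 in edgeR). Its 48 h libraries lay below all earlier ones.

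**Figure D3:**
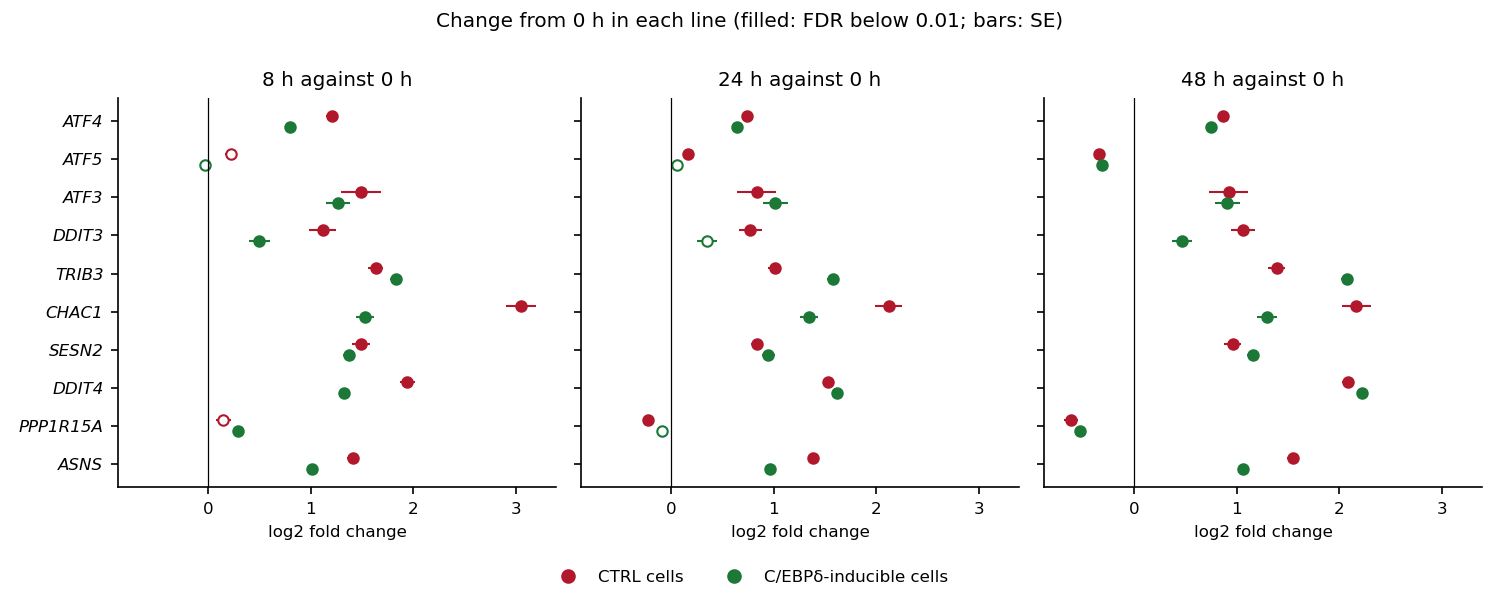
Change of each gene from 0 h on the log2 scale, with SE, in CTRL and C/EBPδ-inducible cells at 8, 24 and 48 h, filled where edgeR gave an FDR under 0.01. CHAC1 at 8 h in CTRL cells is the point farthest to the right.

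Whether a gene changed more over the time course in C/EBPδ-inducible than in CTRL cells was tested as an interaction, the log2 change in the inducible line minus that in the CTRL line. At 8 h, 4 members passed and all had the smaller rise in the inducible cells, against 0.770% of 16228 genes with a negative and 0.887% with a positive interaction. They were CHAC1 (-1.50 ± 0.17 (SE), adjusted p = 0.000129 in edgeR), DDIT4 (-0.59 ± 0.084 (SE), adjusted p = 0.00074), ATF4 (-0.39 ± 0.066 (SE), adjusted p = 0.00257) and ASNS (-0.38 ± 0.075 (SE), adjusted p = 0.00791). In all 4, the inducible line had started from the higher level at 0 h. At 8 h itself the CHAC1 libraries of the lines overlapped, at 17.3 to 21.8 CPM in CTRL and 19.9 to 21.6 CPM in inducible cells, and so did those of ATF4. The ASNS call was lost without CTRL 0 h replicate 1 or 3, inducible 0 h replicate 1 or 3, CTRL 8 h replicate 2 or inducible 8 h replicate 1, 2 or 3, adjusted p from 0.0175 to 0.0347, and with the replicate block (adjusted p = 0.0189). The ATF4 call was lost without CTRL 0 h replicate 1, inducible 0 h replicate 2 or 3 or inducible 8 h replicate 1 or 2, adjusted p from 0.0105 to 0.015. The count of 4 fell to 2 without CTRL 0 h replicate 1, inducible 0 h replicate 3 or inducible 8 h replicate 1 or 2.

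At 24 and 48 h, 3 members passed, TRIB3 with the larger rise in the inducible cells and CHAC1 and ASNS with the smaller one. All genes gave 2.86% positive and 2.98% negative at 24 h, and 2.83% and 2.72% at 48 h. TRIB3 is the clearest case of a gene with equal starting levels. The lines overlapped at 0 h, with 16.2, 16.8 and 18.7 CPM in CTRL and 16.2, 17.9 and 16.0 CPM in inducible cells, and were apart at 48 h, with 47.1, 41.9 and 47.0 CPM against 72.4, 69.9 and 71.0 CPM. Its interaction was 0.57 ± 0.087 (SE), adjusted p = 4.99e-05 in edgeR at 24 h and 0.68 ± 0.097 (SE), adjusted p = 9.51e-05 in edgeR at 48 h. ASNS gave -0.42 ± 0.067 (SE), adjusted p = 9.73e-05 in edgeR at 24 h and -0.50 ± 0.076 (SE), adjusted p = 0.000172 in edgeR at 48 h. CHAC1 gave -0.77 ± 0.16 (SE) at 24 h, a call lost without CTRL 0 h replicate 2, adjusted p = 0.0161, and -0.88 ± 0.18 at 48 h, lost without CTRL 0 h replicate 2 or inducible 0 h replicate 2, adjusted p from 0.0125 to 0.0156. DDIT3 had the smaller rise in the inducible cells by -0.60 ± 0.15 at 48 h and missed the threshold in edgeR (adjusted p = 0.0119). It passed without CTRL 0 h replicate 2, inducible 0 h replicate 1 or CTRL 48 h replicate 1, adjusted p from 0.00631 to 0.00956, with no filter (adjusted p = 0.00705), in the model of all 24 libraries (adjusted p = 0.00956) and with the replicate block (adjusted p = 0.00815).

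Over the step from 8 to 24 h, CHAC1 and DDIT4 had a positive interaction, against 1.14% of all genes, and no member had a negative one, against 1.92%. Both had differed between the lines at 0 h already. The CHAC1 difference was 1.60 at 0 h, 0.11 at 8 h and 0.82 at 24 h (log2), and that of DDIT4 was 1.29, 0.71 and 1.37. For DDIT4, which fell in CTRL and rose in inducible cells, the interaction was 0.68 ± 0.081 (SE), adjusted p = 5.37e-05 in edgeR. For CHAC1, which fell in CTRL cells, it was 0.72 ± 0.13 (SE), adjusted p = 0.00249 in edgeR, a call lost without CTRL 24 h replicate 1 or inducible 24 h replicate 1, adjusted p from 0.0103 to 0.0127. ATF4 (0.30 ± 0.069 (SE), adjusted p = 0.0123 in edgeR) and TRIB3 (0.34 ± 0.083 (SE), adjusted p = 0.0156) fell just short and passed under several other settings, so that the count was 4 without CTRL 8 h replicate 1 or 3 and 1 without CTRL 24 h replicate 1 or inducible 24 h replicate 1.

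Between the lines at a given time, DDIT4, ATF3, ASNS and PPP1R15A were higher in the C/EBPδ-inducible cells at all 4 times. These comparisons have a wide background, since 20.0% of 15317 genes were higher and 23.9% lower in the inducible cells already at 0 h, where 8 members were higher and none lower. KRT8 ran from 1004 to 1593 CPM over the CTRL libraries and from 34.5 to 76.2 CPM over the inducible ones, KRT18 from 896 to 1174 CPM and 68.7 to 115 CPM, and KRT19 from 149 to 222 CPM and 6.58 to 17.4 CPM, and their part in the result was not tested. The difference between clones, the uninduced CEBPD level and the cDNA cannot be told apart in these comparisons. At 0 h, the largest differences were those of CHAC1 (1.60 ± 0.14 (SE), adjusted p = 1.18e-08 in edgeR), DDIT4 (1.29 ± 0.048 (SE), adjusted p = 2.36e-14), ATF3 (1.16 ± 0.19 (SE), adjusted p = 2.77e-05) and ASNS (0.89 ± 0.049 (SE), adjusted p = 1.05e-11). In each of them no library overlapped between the lines.

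ATF4 was higher at 0 h by 0.47 ± 0.036 (log2, SE), and TRIB3 (-0.056 ± 0.077 (SE), adjusted p = 0.569 in edgeR) and ATF5 (-0.069 ± 0.038 (SE), adjusted p = 0.136) did not pass. The calls of DDIT3 (0.41), SESN2 (0.23) and PPP1R15A (0.17) were small and unstable. In DESeq2 they gave adjusted p = 0.0354, 0.041 and 0.0214, and the count fell from 8 to 5. The DDIT3 call was lost without CTRL 0 h replicate 1 or 3 or inducible 0 h replicate 2 or 3, adjusted p from 0.0225 to 0.0604. SESN2 was lost without CTRL 0 h replicate 2 or 3 or inducible 0 h replicate 1, 2 or 3, adjusted p from 0.0117 to 0.0355, and PPP1R15A without CTRL 0 h replicate 1 or 2 or inducible 0 h replicate 1 or 3, adjusted p from 0.0298 to 0.0533. The count also fell to 5 without inducible 0 h replicate 3 alone.

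At 8 h, 4 members were higher and 1, ATF5, was lower, against 14.3% and 17.4% of 15561 genes. DDIT4 (0.71 ± 0.067, SE), ATF3 (0.97 ± 0.13), ASNS (0.53 ± 0.051) and PPP1R15A (0.35 ± 0.068) were the higher ones on the log2 scale. The PPP1R15A call was lost without CTRL 8 h replicate 2 or inducible 8 h replicate 1 or 2, adjusted p from 0.0104 to 0.0137. ATF4 (0.088 ± 0.056 (SE), adjusted p = 0.23 in edgeR) and CHAC1 (0.11 ± 0.099 (SE), adjusted p = 0.384) did not pass at 8 h. TRIB3 (0.19 ± 0.068 (SE), adjusted p = 0.0435 in edgeR) passed without CTRL 8 h replicate 1, adjusted p = 0.00614.

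At 24 h, 8 members were higher and 1 lower, against 21.5% and 25.3% of 15700 genes, and at 48 h 8 were higher and none lower, against 17.6% and 20.7% of 15592 genes. DDIT4 differed most, with 81.7, 85.5 and 83.8 CPM in CTRL and 220.3, 210.2 and 223 CPM in inducible cells at 24 h (1.37 ± 0.037 (SE), adjusted p = 7.06e-21 in edgeR), and by 1.44 ± 0.047 (log2, SE) at 48 h. ATF3 followed with 3.77, 3.47 and 3.26 CPM against 9.05, 9.48 and 8.10 CPM (1.34 ± 0.12 (SE), adjusted p = 3.75e-10 in edgeR). For CHAC1 the log2 difference was 0.82 ± 0.082 (SE) at 24 h, for TRIB3 0.51 ± 0.048, for ASNS 0.47 ± 0.037, for ATF4 0.37 ± 0.034, for SESN2 0.34 ± 0.058 and for PPP1R15A 0.31 ± 0.052. ATF5 was the lower one (-0.17 ± 0.036 (SE), adjusted p = 0.000157 in edgeR).

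DDIT3 did not follow ATF4 in this comparison. At 24 h it stood at 9.36, 10.5 and 9.55 CPM in CTRL and 9.25, 10.3 and 9.86 CPM in inducible cells, which overlap. The log2 difference was -0.004 ± 0.091 (SE), adjusted p = 0.976 in edgeR, with a sign that turned under several settings, and its 95% interval ran from -0.19 to 0.18. At 48 h the values were 11.5, 12.4 and 12.2 CPM against 10.3, 10.8 and 11.1 CPM (-0.17 ± 0.089 (SE), adjusted p = 0.133 in edgeR). In the per-gene analysis of variance that the study used at 24 h, run here on log2(CPM + 1), ATF5, SESN2 and PPP1R15A no longer passed (adjusted p = 0.021, 0.0247 and 0.0213, adjusted over all genes). The PPP1R15A call at 48 h (0.27) was lost without CTRL 48 h replicate 3 or inducible 48 h replicate 1 or 2, adjusted p from 0.0181 to 0.0303.

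**Figure D4:**
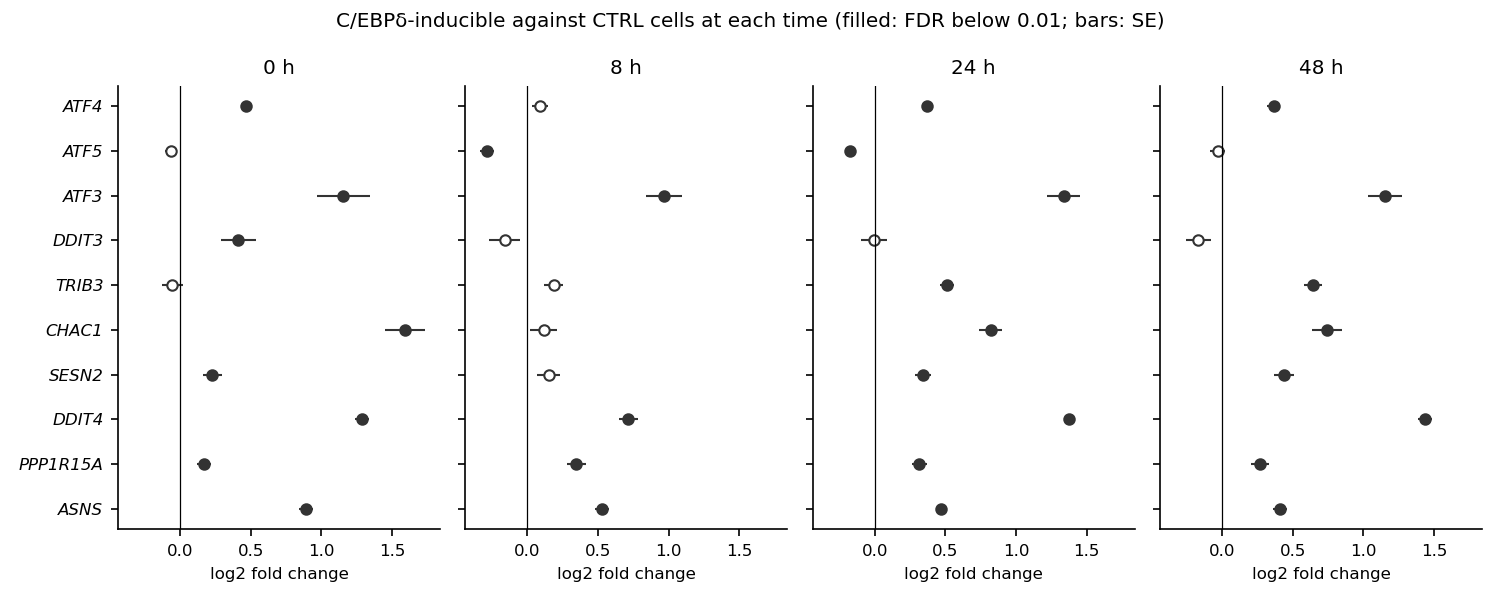
Difference of C/EBPδ-inducible from CTRL cells for each gene at 0, 8, 24 and 48 h on the log2 scale, with SE, filled where edgeR gave an FDR under 0.01. DDIT4, ATF3 and ASNS lie to the right of 0 at all 4 times, as does PPP1R15A with smaller differences, and DDIT3 is open from 8 h on.

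The order of the 8 group means shows which genes followed the line and which the time. For DDIT4 the 3 doxycycline-treated inducible groups came highest, each apart from the next, and only the CTRL groups of 48 h and 8 h overlapped as neighbours. ASNS and ATF3 had the same 3 groups on top, with overlap between 8, 24 and 48 h in ASNS and between 24 and 48 h in ATF3. For ATF4, CHAC1 and SESN2, the CTRL cells at 8 h took a place among the treated inducible groups and overlapped with at least 1 neighbour. In DDIT3 the 6 treated groups overlapped from neighbour to neighbour, and the 2 groups of 0 h lay below them. In PPP1R15A the 2 groups of 48 h were lowest, and in ATF5 they were lowest and overlapped.

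Across the 24 libraries, after the mean of each line was subtracted, 8 of the members moved together. The pairwise Pearson r of log2 CPM among ATF4, ATF3, DDIT3, TRIB3, CHAC1, SESN2, DDIT4 and ASNS ran from 0.80 (ATF3 and DDIT3) to 0.98 (ATF4 and CHAC1). ATF5 and PPP1R15A had r = 0.77 with each other and from -0.47 to 0.081 with the other 8. These libraries share the time course, so r is a description of the pattern. Among 17022 other genes, those most like ATF4 were SLC1A4 (r = 0.98), a neutral amino acid transporter, then CHAC1 (r = 0.98) and SESN2 (r = 0.97). The gene most like ASNS was PSAT1 (r = 0.99), an enzyme of serine synthesis, followed by the tRNA synthetases EPRS1 (r = 0.97) and CARS1 (r = 0.97). TRIB3 and DDIT4 both had GPT2, a mitochondrial alanine aminotransferase, as the closest gene, with r = 0.98 for TRIB3 and r = 0.97 for DDIT4.

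Some of the remaining members had neighbours already named. CHAC1 was closest to ATF4, EIF4EBP1 (r = 0.95) and SLC1A4 (r = 0.95), and SESN2 to SLC1A4 (r = 0.98), ATF4 and XBP1 (r = 0.96). For ATF3, XBP1 (r = 0.93) came after ATF4 and SESN2. DDIT3 was most like VLDLR (r = 0.96), a lipoprotein receptor on the list of ATF4 targets, and the synthetases CARS1 (r = 0.96) and AARS1 (r = 0.95). SLC1A4, EIF4EBP1 and FUT1 are on none of the pathway lists. The pair that stood apart also had neighbours outside these lists. Among them were ZNF622 (r = 0.94) and RRP12 (r = 0.94) for ATF5, and UBE2C (r = 0.97), TUBB6 (r = 0.96) and PNP (r = 0.95) for PPP1R15A. UBE2C is a ubiquitin-conjugating enzyme of mitosis.

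Other ATF4 targets of the amino acid response, a list of 35 genes, rose broadly in both lines. The list holds genes for serine, proline and sulphur amino acid synthesis, transporters and tRNA synthetases, and others such as GDF15, VLDLR, JDP2, KLHL24, CEBPB and CEBPG. In CTRL cells 24 of 32 tested were higher at 8 h and none was lower (0.905% and 0.793% of all genes), with a median log2 change of 0.76. At 24 h, 28 of 33 were higher and 1, SLC38A2, lower (2.81% and 3.25% of all genes), and at 48 h 28 of 33 were higher and none lower (15.2% and 14.7%). In the inducible cells 28 of 33 were higher at 8 h (15.0% of all genes), 30 of 33 at 24 h (7.33%) with SLC38A2 again lower, and 30 of 34 at 48 h (19.1%). SLC7A11, the cystine importer, is an example. Its CTRL libraries rose from 11.9, 11.3 and 11.4 CPM to 61.0, 82.2 and 83.6 CPM at 8 h (2.73 ± 0.12 (SE), adjusted p = 1.07e-06 in edgeR). Its inducible libraries rose from 52.6, 50.2 and 51.6 CPM to 149.6, 152 and 148 CPM (1.54 ± 0.032 (SE), adjusted p = 1.61e-18 in edgeR).

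The interaction of this list was mostly negative where it passed. At 24 h 1 of 33 rose more and 10 rose less in the inducible cells (2.86% positive and 2.98% negative in all genes). At 48 h none rose more and 11 rose less (2.83% and 2.72%). The smaller rises at 24 h included SLC7A11 (-0.83 ± 0.079 (SE), adjusted p = 4.7e-08 in edgeR) and the serine and glycine tRNA synthetases SARS1 (-0.37 ± 0.043 (SE), adjusted p = 1.06e-06) and GARS1 (-0.35 ± 0.038 (SE), adjusted p = 4.66e-07). KLHL24 was the 1 with a larger rise (0.48 ± 0.11 (SE), adjusted p = 0.00379 in edgeR). Between the lines, 23 of 32 were higher and 3 lower in the inducible cells already at 0 h (20.0% and 23.9% of all genes), and at 24 h 22 of 33 were higher and 5 lower (21.5% and 25.3% of all genes). GDF15, a secreted stress cytokine, had the largest difference at 24 h, with 0.691, 0.867 and 0.606 CPM in CTRL and 6.80, 8.29 and 7.84 CPM in inducible cells (3.39 ± 0.18 (SE), adjusted p = 1.5e-14 in edgeR). It did not pass in CTRL cells at 24 h (0.19 ± 0.34 (SE), adjusted p = 0.798 in edgeR) and did in inducible cells (1.50 ± 0.13 (SE), adjusted p = 4.99e-09 in edgeR), but the interaction did not pass (1.32 ± 0.35 (SE), adjusted p = 0.0161 in edgeR). VLDLR (1.85 ± 0.075) and ALDH1L2 (1.53 ± 0.15), a mitochondrial folate enzyme, followed (log2 difference, SE). The tryptophan synthetase WARS1 was lower, at 712, 707 and 695 CPM against 253, 269 and 263 CPM (-1.43 ± 0.029 (SE), adjusted p = 1.49e-23 in edgeR), as were JDP2 (-0.49 ± 0.16) and the arginine transporter SLC7A1 (-0.40 ± 0.028).

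Upstream, of 13 genes for the eIF2 kinases, eIF2, eIF2B and a phosphatase subunit, 1 of 13 was higher in CTRL cells at 8 h (0.905% of all genes) and 2 of 13 at 24 h (2.81%), with none lower, and at 48 h 2 of 13 were higher and 2 lower (15.2% and 14.7%). EIF2S2, a subunit of eIF2, rose at both times (0.40 ± 0.051 and 0.36 ± 0.035, log2, SE), and PPP1R15B, the constitutive partner of the eIF2 phosphatase, at 24 h (0.17 ± 0.039). None of the kinase genes EIF2AK1 (HRI), EIF2AK2 (PKR), EIF2AK3 (PERK) and EIF2AK4 (GCN2) passed in CTRL cells at 8 or 24 h. In the inducible cells 2 of 13 were higher and 3 lower at 8 h (15.0% and 15.5% of all genes), 2 of 13 and 1 at 24 h (7.33% and 8.14%), and 4 of 13 and 5 at 48 h (19.1% and 19.5%). Between the lines at 24 h, 4 of 13 were higher in inducible cells, led by PPP1R15B (0.46 ± 0.035, log2, SE), EIF2B3 (0.41 ± 0.047) and EIF2S3 (0.36 ± 0.03), and 3 lower, namely EIF2B2 (-0.74 ± 0.06), EIF2AK2 (-0.28 ± 0.036) and EIF2S2 (-0.11 ± 0.034). No gene of the list passed in the edgeR interaction at 8, 24 or 48 h, where 3, 0 and 4 of the 13 had an unadjusted p under 0.05. Phosphorylation of eIF2 and ATF4 protein were not measured here.

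For the other arms of the unfolded protein response, the mRNA of a list of 19 targets and parts of IRE1 and ATF6 was followed. Splicing of XBP1 mRNA and the activity of ATF6 protein were not measured here. In CTRL cells 2 of 19 were higher at 8 h and none lower (0.905% and 0.793% of all genes), and at 24 h 2 of 19 were higher and 1 lower (2.81% and 3.25%). The 2 higher ones were XBP1 and HERPUD1 at both times. At 48 h 5 of 19 were higher and 3 lower (15.2% and 14.7%). XBP1, the factor spliced by IRE1, rose from 92.4, 95.4 and 92.9 CPM to 174, 174 and 186 CPM at 8 h (0.95 ± 0.052 (SE), adjusted p = 3.16e-06 in edgeR), and HERPUD1, part of the degradation machinery of the reticulum, by 0.68 ± 0.067 (log2, SE). The chaperone HSPA5 (BiP), a main ATF6 target, stood at 635, 691 and 663 CPM and 667, 630.0 and 638 CPM, which overlap (-0.014 ± 0.044 (SE), adjusted p = 0.9 in edgeR). In inducible cells 10 of 19 were higher and 2 lower at 8 h, HSPA5 among the higher ones (0.33 ± 0.028 (SE), adjusted p = 7.02e-09 in edgeR), 4 of 19 were higher and 4 lower at 24 h, and 6 of 19 and 6 at 48 h, against the shares of all genes given above for the same comparisons. HSPA5 had a positive interaction at 24 h (0.25 ± 0.039 (SE), adjusted p = 8.68e-05 in edgeR). Between the lines at 24 h, 3 of 19 were higher in inducible cells, XBP1 (0.57 ± 0.035, log2, SE), ERN1 (0.37 ± 0.059), which encodes IRE1, and HERPUD1 (0.17 ± 0.053), and 7 were lower (21.5% and 25.3% of all genes). The lower ones with the largest differences were CRELD2 (-0.94 ± 0.058), PDIA6 (-0.59 ± 0.028) and SEL1L (-0.52 ± 0.052).

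Of 5 genes known as CHOP targets, 1 of 5 was higher in CTRL cells at 8 h (0.905% of all genes) and 1 of 5 at 24 h (2.81%), GADD45A both times. In inducible cells 3 of 5 were higher at 8 h (15.0% of all genes), and at 24 h 2 of 5 were higher and 2 lower (7.33% and 8.14%). GADD45A, a stress-induced growth arrest gene, was far higher in the inducible cells at 0 h, with 11.3, 12.1 and 11.4 CPM in CTRL and 74.6, 80.1 and 81.2 CPM in inducible cells. It then went to 57.0, 58.8 and 56.7 CPM at 24 h in the inducible cells and to 17.3, 15.1 and 17.9 CPM in CTRL cells, in opposite directions (-0.97 ± 0.088 (SE), adjusted p = 2.06e-08 for the interaction in edgeR). Between the lines, 3 of 5 were higher in inducible cells already at 0 h (20.0% of all genes) and 4 of 5 at 24 h (21.5%). None was lower at either time (23.9% and 25.3%). In the interaction at 24 h none of the 5 was positive and 1, GADD45A, was negative (2.86% and 2.98%). BBC3 (PUMA), a promoter of apoptosis, was higher in inducible than CTRL cells at 24 h (1.16 ± 0.14 (SE), adjusted p = 6.17e-08 in edgeR), and so was the death receptor gene TNFRSF10B (0.38 ± 0.036 (SE), adjusted p = 1.17e-09).

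**Figure D5:**
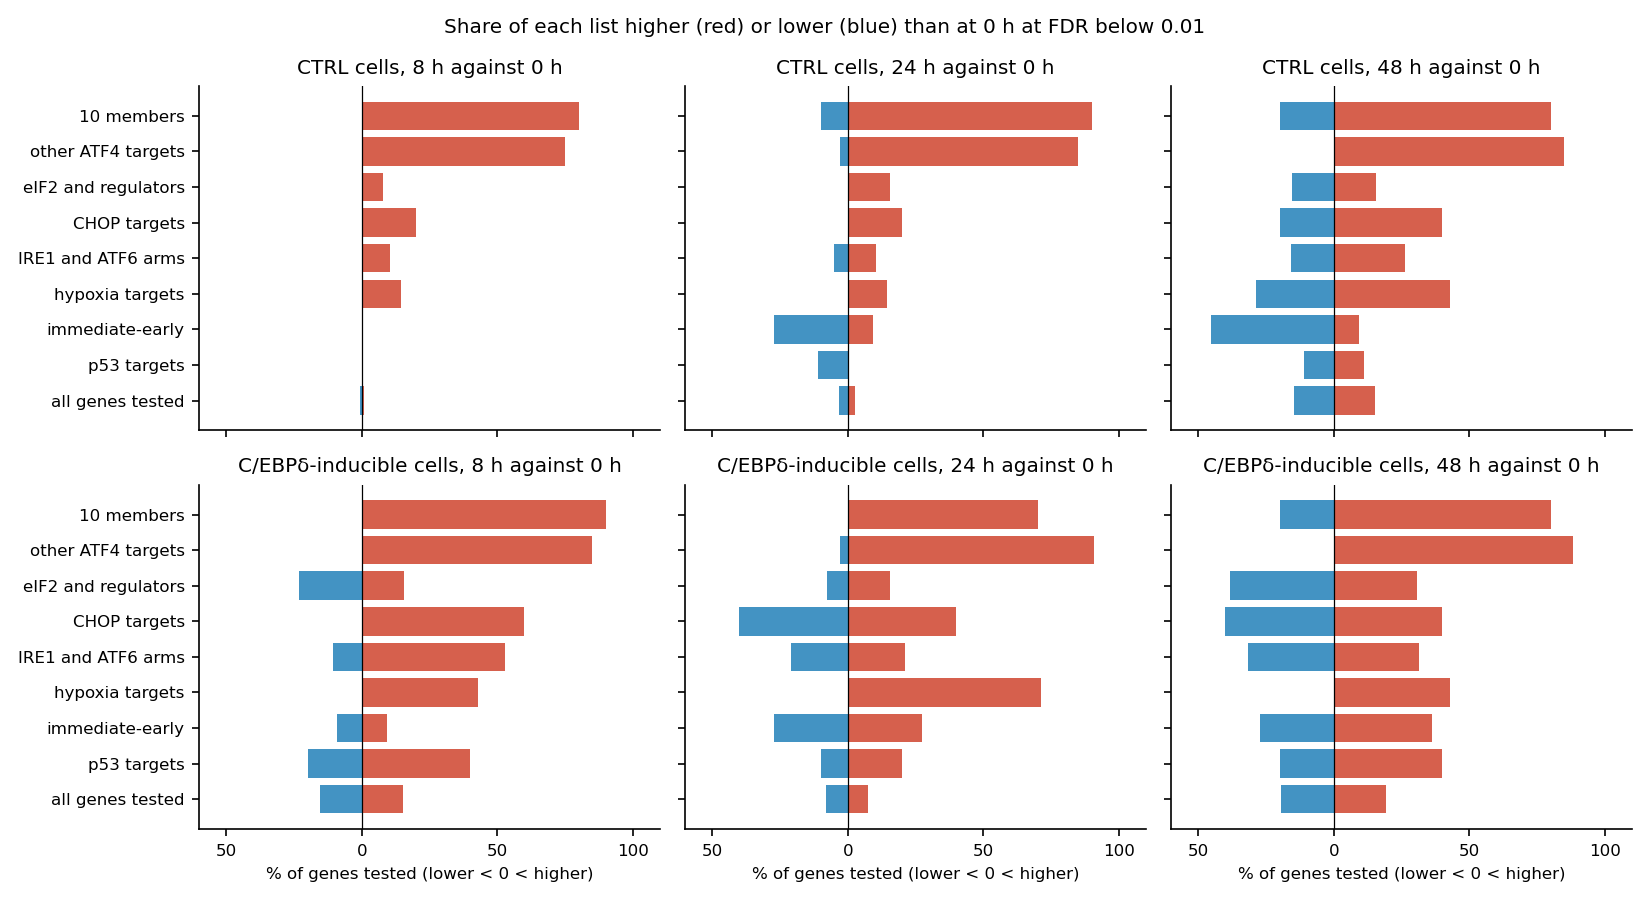
Share of each gene list, in percent of its tested genes, that was higher (right) or lower (left) than at 0 h at an FDR under 0.01 in edgeR, for both lines and 3 times, with all genes tested as the lowest bar. The 10 genes and the other ATF4 targets have the longest bars to the right, except in inducible cells at 24 h, where the hypoxia targets (5 of 7) reach as far as the 10 genes (7 of 10).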

How the data were processed

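The authors depleted ribosomal RNA, trimmed reads with Trimmomatic, used HISAT2 for alignment to GRCh38 and HTSeq for counting on Ensembl genes. The deposited table holds whole-number counts per gene and library, without normalization, filter or pooling. Strand setting and handling of multiply matching reads are not given in the sources used here, and either could move counts between overlapping genes or pseudogene copies. Names and positions came from GENCODE release 44 (56558 of 60675 identifiers matched), a later annotation than that of the counts.

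After filterByExpr and TMM scaling, edgeR 4.0.16 (R 4.3.3) was run with its quasi-likelihood F test on the groups compared. P values were two-sided and Benjamini-Hochberg adjusted over all genes tested, with an FDR of 0.01. There were 13 comparisons, and 5 steps between neighbouring times were added after the levels had been seen. FPKM used exon lengths of GENCODE. A two-sided exact permutation test of 3 against 3 libraries has a smallest p of 0.1, so the tests rest on the model across all genes. Chi-square per degree of freedom between replicates of a group was 1.66 to 17.4, so no library was a repeat of another. The highest values were between 8 h wells, 17.4 for CTRL replicates 1 and 3 and 13.0 for inducible replicates 2 and 3. The part of this spread in the 8 h results was not tested. Same-numbered wells deviated together most in CTRL 24 h against 0 h (r from 0.17 to 0.25 over the 3 pairs). The next highest mean r was 0.06, in inducible cells at 48 h against 0 h. The numbers come from the labels.

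The members and the 7 pathway lists were chosen with earlier results of these data known. List genes in the text were taken from the 3 with the largest change in each direction at 24 h, between the lines and in the interaction, among genes that passed and whose libraries did not overlap between the lines, and not all of these are named. For each member the text names the 3 genes of highest Pearson r, of which 1 for ATF5 is not reported here. Other list genes named (SLC38A2 and the kinase genes EIF2AK1, EIF2AK3 and EIF2AK4) were chosen after their values were seen. Alternatives were DESeq2 1.42.0, RLE size factors, no filter, a filter of 10 counts per library, 1 model for all 24 libraries, a block for the replicate number, an analysis of variance on log2(CPM + 1) at 24 h between the lines, and leaving out each library in turn.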

Additional observations from a re-analysis of the deposited data

Results flagged for a closer look

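The change over the time course differed between the lines in 12 tests of an interaction among the 10 genes, given here as the log2 change in C/EBPδ-inducible cells minus that in CTRL cells in edgeR. At 8 h against 0 h the difference was -0.39 for ATF4, -1.50 for CHAC1, -0.59 for DDIT4 and -0.38 for ASNS. At 24 h against 0 h it was 0.57 for TRIB3, -0.77 for CHAC1 and -0.42 for ASNS. At 48 h it was 0.68 for TRIB3, -0.88 for CHAC1 and -0.50 for ASNS. From 8 to 24 h it was 0.72 for CHAC1 and 0.68 for DDIT4. The tests against 0 h share the 0 h libraries, and the 0 h levels of CHAC1, DDIT4, ATF4 and ASNS differed between the lines, with a part in the result that was not tested. Groups of 3 libraries are too small for a test of single outlying libraries.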

How the results depend on the processing

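Of 180 results (10 genes in 18 comparisons), 115 passed the threshold, and 91 of these did so under every alternative and every left-out library. None of the 115 changed sign. The log2 difference of DDIT3 between the lines at 24 h, which did not pass, was 0.00032 with RLE size factors, 0.00099 in DESeq2, 7.7e-05 with at least 10 counts in every library and 0.0018 in the model of all 24 libraries, and ran from -0.0431 to 0.0499 without single libraries. The count of members between the lines at 0 h went from 8 to 5 in DESeq2, and that for the interaction from 8 to 24 h from 2 to 4 with no filter and in the model of all 24 libraries. Without single libraries these counts ran from 5 to 6 and from 1 to 4, that of the interaction at 8 h from 2 to 4 and that of CTRL cells from 8 to 24 h from 1 to 6. Other values that did not pass and turned sign ran from -0.11 to 0.00279 (TRIB3, lines at 0 h), -0.0636 to 0.0155 (ATF5, lines at 48 h), -0.20 to 0.12 and -0.022 to 0.0614 (ATF3 and ATF5, interaction at 48 h), -0.0264 to 0.00412 (ASNS, CTRL 8 to 24 h), -0.0308 to 0.11 (CHAC1, CTRL 24 to 48 h) and -0.0703 to 0.0453 (PPP1R15A, interaction from 8 to 24 h). The cause was not tested.

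The replicate block changed 6 calls. It lost SESN2 between the lines at 0 h (0.23, adjusted p = 0.0138 in edgeR), ASNS in the interaction at 8 h (-0.38) and DDIT4 in CTRL cells from 8 to 24 h (-0.40), and gained DDIT3 in the interaction at 48 h (-0.61), ATF4 in inducible cells from 24 to 48 h (0.11) and ATF4 in the interaction from 8 to 24 h (0.29). It changed no call in CTRL cells at 24 h against 0 h, where same-numbered wells deviated together most. The labels give only the replicate numbers, and whether wells were paired was not tested. With 30 counts in the lowest library, ATF3, CHAC1 and DDIT3 are the members whose small differences this depth shows least well.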

Other observations

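Genes outside the amino acid and unfolded protein responses also moved. Of 10 hypoxia genes, 7 could be tested, and 1 of 7 was higher in CTRL cells at 8 h (0.905% of all genes). It was VEGFA, the endothelial growth factor that ATF4 is also known to induce. VEGFA went from 49.9, 55.8 and 53.1 CPM to 150.4, 147 and 139 CPM in CTRL cells (1.49 ± 0.061 (SE), adjusted p = 5.56e-07 in edgeR) and from 104, 105 and 108 CPM to 232, 229 and 223 CPM in inducible cells (1.11 ± 0.031 (SE), adjusted p = 1.48e-16 in edgeR). SLC2A1, the glucose transporter gene of the same list, did not pass in CTRL cells at 8 h (-0.029 ± 0.053, log2, SE). In inducible cells 5 of 7 were higher at 24 h and none lower (7.33% and 8.14% of all genes). The interaction at 24 h was positive in 3 of 7 and negative in none (2.86% and 2.98% of all genes). SLC2A1 was among the positive ones (0.27 ± 0.051 (SE), adjusted p = 0.000842 in edgeR). ADM, adrenomedullin, had a positive interaction at 24 h (0.76 ± 0.16 (SE), adjusted p = 0.00155 in edgeR) and stood at 4.31, 5.47 and 4.85 CPM in CTRL and 15.6, 13.4 and 15.2 CPM in inducible cells. Between the lines at 24 h, 3 of 7 were higher and none lower (21.5% and 25.3% of all genes). The higher ones were ADM, NDRG1 (1.22 ± 0.079, log2, SE) and VEGFA (0.84 ± 0.036).

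Of 10 p53 targets, none passed in CTRL cells at 8 h in edgeR (2 of 9 tested had an unadjusted p under 0.05), and at 24 h none was higher and 1 lower (2.81% and 3.25% of all genes). CDKN1A (p21), the cell cycle inhibitor, stood at 5.38, 4.91 and 4.96 CPM at 0 h and 4.36, 6.07 and 4.05 CPM at 24 h in CTRL cells, and at 13.7, 14.8 and 14.1 CPM and 26.5, 24.1 and 27.1 CPM in inducible cells. The interaction was 0.94 ± 0.16 (SE), adjusted p = 0.000188 in edgeR. Between the lines at 24 h, 5 of 10 p53 targets were higher and 3 lower in inducible cells, against 21.5% and 25.3% of all genes. The largest differences were in CDKN1A (2.41 ± 0.10, log2, SE) and PHLDA3 (1.53 ± 0.36) upwards and FAS (-0.77 ± 0.12) downwards. Of 12 immediate-early genes, 1 of 11 was higher and 3 lower in CTRL cells at 24 h (2.81% and 3.25% of all genes). EGR1, a growth factor response gene, had a positive interaction at 24 h (0.89 ± 0.07 (SE), adjusted p = 1.63e-09 in edgeR) and was lower in inducible than in CTRL cells at that time, with 75.2, 80.3 and 75.5 CPM against 131, 126 and 126 CPM. In that comparison 6 of 11 immediate-early genes were higher and 4 lower, against the same 21.5% and 25.3% of all genes. IER3 (0.88 ± 0.087, log2, SE) was first among the higher and EGR3 (-1.21 ± 0.23) first among the lower ones.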
